A study of Homo sapiens with 2 samples.

Results

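Chromosomes 17, 19 and 22 held 24093 of the 276190 accessible-chromatin peaks that were called in the 2 libraries of this ATAC-seq experiment, or 8.72%. Of these peaks, 13005 belonged to the DMSO library and 11088 to the MAK683 library. The members are all peaks with 1 of these chromosome names. The chromosomes were selected on the readout itself: among the 24 main chromosomes they were the ones where the MAK683 library had fewer peaks than the DMSO library, so that contrast is given below as a description and supports nothing. Annotation bore out the name "gene-rich". Chromosome 19 carried 26.5 protein-coding genes per Mb of known bases, chromosome 17 carried 15.3 and chromosome 22 carried 12.9, which were the highest values of all chromosomes, ahead of chromosome 16 at 10.9.

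ATAC-seq uses the Tn5 transposase to cut open chromatin, so the ends of sequenced fragments pile up where DNA is accessible. Both libraries came from G401, an established malignant rhabdoid tumor line that the study describes as SMARCB1-deficient, grown in the same medium, DMEM with fetal bovine serum and 2-mercaptoethanol, and the labels name no further genetic change. Treatment lasted 3 days, with the solvent DMSO alone in the control group and with MAK683 at 3 μM in the treated group. MAK683 binds EED, the subunit of Polycomb repressive complex 2 (PRC2) that reads methylated histone H3, and blocks the methylation of H3 lysine 27. There was 1 library per group, so no test between treatments was possible: all intervals below are 95% intervals for counting error only, and reads that lack molecular identifiers, like neighboring peaks, are not independent.

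Gene-dense chromosomes lie toward the interior of the nucleus, are rich in G and C and hold many promoters of constantly active genes. PRC2 covers the promoters of silent developmental genes and broad silent domains with trimethylated H3 lysine 27, and chromatin there is compact. Chromosome 19 also carries large clusters of KRAB zinc finger genes, and chromosome 17 carries the HOXB cluster, the keratin clusters and a large cluster of CC chemokine genes.

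The sequences under a few summits are printed first, because they are the sites where the libraries differed most by the deposited calls. Each runs from 100 bases before to 100 bases after a summit, on the plus strand of GRCh37 (the hg19 build of the peak files), and holds no annotated UTR. Capitals mark matches, on either strand, to any of the 7 motifs searched: TGANTCA (AP-1), CCGGAAG (ETS), GCATGCGC (NRF1), AGGGGGC (the core of the CTCF site), GGGGCGGGG (SP/KLF), TGACGTCA (CRE) and CCAATNAG (NFY). The first set holds 4 of the 6 tallest peaks found in the MAK683 library only. They lie 36276 bp from the transcription start site (TSS) of NOG, in an intron of TMEM132E, in an intron of TMEM100 and in an intron of LINC01483.
NOG distal, chr17:54707236-54707436: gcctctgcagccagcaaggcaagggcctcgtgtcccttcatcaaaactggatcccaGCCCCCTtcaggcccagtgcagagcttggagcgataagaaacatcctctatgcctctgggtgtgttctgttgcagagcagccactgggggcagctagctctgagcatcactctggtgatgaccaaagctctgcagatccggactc
TMEM132E intron, chr17:32909666-32909866: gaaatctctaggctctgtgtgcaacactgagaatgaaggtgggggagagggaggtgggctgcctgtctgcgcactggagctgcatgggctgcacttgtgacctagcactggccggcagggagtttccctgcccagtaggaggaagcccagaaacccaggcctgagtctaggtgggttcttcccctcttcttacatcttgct
TMEM100 intron, chr17:53802838-53803038: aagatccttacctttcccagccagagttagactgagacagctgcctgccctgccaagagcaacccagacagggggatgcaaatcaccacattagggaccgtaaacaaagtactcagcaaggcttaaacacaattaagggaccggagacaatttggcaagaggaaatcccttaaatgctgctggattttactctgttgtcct
LINC01483 intron, chr17:67758299-67758499: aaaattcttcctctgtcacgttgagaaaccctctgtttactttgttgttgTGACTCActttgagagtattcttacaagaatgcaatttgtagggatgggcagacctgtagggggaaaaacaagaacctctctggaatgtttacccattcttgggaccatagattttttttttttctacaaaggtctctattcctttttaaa
The second set holds MAK683 peaks near the start sites of TSHZ3, which had no DMSO promoter peak, and CCL1, which had a low one. These windows were chosen after their values were seen.
TSHZ3, chr19:31839793-31839993: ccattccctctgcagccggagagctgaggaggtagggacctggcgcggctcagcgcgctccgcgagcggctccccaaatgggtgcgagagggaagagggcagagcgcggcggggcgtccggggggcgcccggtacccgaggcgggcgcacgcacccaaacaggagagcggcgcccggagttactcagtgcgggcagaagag
CCL1, chr17:32688601-32688801: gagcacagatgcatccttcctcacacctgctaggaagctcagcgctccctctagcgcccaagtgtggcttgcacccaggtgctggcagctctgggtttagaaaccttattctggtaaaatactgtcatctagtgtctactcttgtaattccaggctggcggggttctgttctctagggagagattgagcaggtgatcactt
The third set holds DMSO summits. The BICRA intron and the intergenic stretch of chromosome 17 are 2 of the 3 tallest peaks found in the DMSO library only. The window upstream of PRAM1, chosen after its values were seen, is the summit of a DMSO peak that reached that promoter. With 29 tags that peak was taller than any found in the DMSO library only, the tallest of which had 28. It thus overlapped a MAK683 peak, which did not reach the promoter.
BICRA intron, chr19:48201353-48201553: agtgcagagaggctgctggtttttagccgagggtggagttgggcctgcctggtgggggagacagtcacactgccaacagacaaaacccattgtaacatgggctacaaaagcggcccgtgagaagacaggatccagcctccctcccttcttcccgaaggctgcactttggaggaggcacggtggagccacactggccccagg
chromosome 17 intergenic, chr17:46095747-46095947: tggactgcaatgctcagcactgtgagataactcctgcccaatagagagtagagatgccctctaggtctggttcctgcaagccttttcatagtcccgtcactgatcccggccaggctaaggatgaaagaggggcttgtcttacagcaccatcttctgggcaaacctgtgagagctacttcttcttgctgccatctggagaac
PRAM1 upstream, chr19:8571105-8571305: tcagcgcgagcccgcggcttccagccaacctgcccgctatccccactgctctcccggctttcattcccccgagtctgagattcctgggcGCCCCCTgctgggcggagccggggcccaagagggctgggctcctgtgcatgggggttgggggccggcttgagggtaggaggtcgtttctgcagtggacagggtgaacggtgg

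Most of these windows held none of the searched letters. The window near NOG and the PRAM1 window both held the CTCF core, and the LINC01483 window held an AP-1 match, TGACTCA. At all summits of the main chromosomes, the CTCF core was found in 7.40% of DMSO and 6.20% of MAK683 windows and the AP-1 letters in 5.51% and 5.85%. On chromosomes 17, 19 and 22 the CTCF core was more frequent, in 10.2% (Wilson interval 9.65 to 10.7) of DMSO and 11.04% (10.5 to 11.6) of MAK683 windows. The SP/KLF letters were found in 5.60% of DMSO and 6.39% of MAK683 windows there, against 2.98% and 2.07% on the other main chromosomes. On chromosomes 17, 19 and 22, peaks of the MAK683 library alone held them in 1.37% and those of the DMSO library alone in 1.92%. The ETS letters were found in 3.74% of DMSO and 4.04% of MAK683 windows, against 2.44% and 1.87% on the other main chromosomes. NRF1 letters were found in 1.05% and 0.857% of windows, against 0.738% and 0.496% on the other main chromosomes. CRE letters were found in 0.561% and 0.703%, against 0.360% and 0.280%, and NFY letters in 3.16% and 3.68%, against 2.38% and 2.25%. Summit windows on chromosomes 17, 19 and 22 were also richer in G and C, with medians of 58.2% and 58.7% against 51.7% and 50.7%. A match describes the sequence, not a bound site.

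The chromosomes had nearly the same ratio of peak numbers. Chromosome 17 had 6020 DMSO and 5201 MAK683 peaks, a ratio of 0.864 (0.832 to 0.897). On chromosome 19 there were 4611 and 3911 peaks, a ratio of 0.848 (0.813 to 0.885), and chromosome 22 had 2374 and 1976, a ratio of 0.832 (0.784 to 0.884). The pooled ratio was 0.853 (0.831 to 0.874). On the other 21 main chromosomes the libraries had 101055 and 150096 peaks, a ratio of 1.49, and the values ran from 1.03 on chromosome 21, just outside the rule, to 2.12 on chromosome 18. The 3 chromosomes that followed in gene density, 16, 11 and 1, had a pooled ratio of 1.35, and the 3 gene-poorest without Y (chromosomes 4, 18 and 13) had 1.94.

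**Figure D1:**
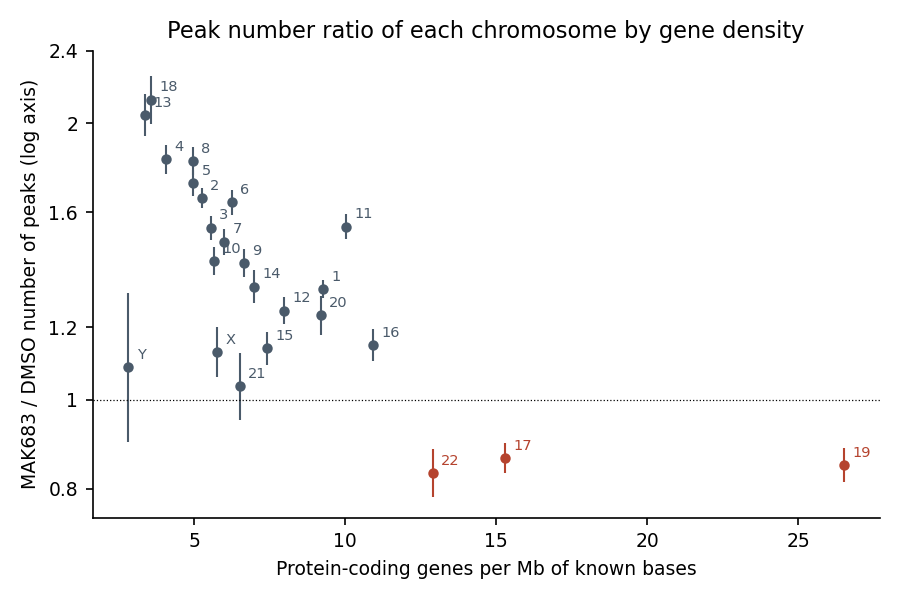
Ratio of peak numbers, MAK683 over DMSO, of each chromosome (log axis) against its protein-coding genes per Mb, with chromosomes 17, 19 and 22 in red and vertical lines for 95% counting intervals. These chromosomes have the highest gene densities and ratios of 0.832 to 0.864, and the others lie between 1.03 and 2.12.

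The peaks were also shorter in the MAK683 library. Peaks on chromosomes 17, 19 and 22 covered 9.86 Mb in the DMSO library, with a mean length of 758 bp, and 7.15 Mb in the MAK683 library, with a mean length of 645 bp. Mean lengths on the other main chromosomes were 744 and 595 bp, so shorter peaks were not particular to these chromosomes. The ratio of covered bases on chromosomes 17, 19 and 22 was 0.726, against 1.19 on the other main chromosomes, where 6 of 21 chromosomes were below 1. The MAK683 library had more tags, 18265284 against 16598348 after the filtering by the peak caller, or 1.10 times as many. The lowest peak in each library had 6 tags.

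Intronic peaks differed more in number than the others. The DMSO library had 6570 peaks on these chromosomes with the summit in an intron and the MAK683 library had 5130, a ratio of 0.781 (0.753 to 0.810). In intergenic sequence the numbers were 3498 and 3287, a ratio of 0.940 (0.896 to 0.986). The ratio was 0.860 (0.774 to 0.955) in coding exons and 0.922 (0.850 to 0.9997) in UTRs.

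The 2 tallest peaks of each chromosome had tags in both libraries, and most of them lay near the centromeres, where duplicated sequence is common and reads cannot always be placed on 1 copy. The tallest peak of all, chr19:27731674-27739662 beside the centromere, had 243 DMSO and 246 MAK683 tags. On chromosome 17 the tallest, chr17:22020523-22021057, had 141 and 132 tags and lay 1566 bp from MTRNR2L1, a nuclear copy of mitochondrial sequence. The next on chromosome 17, chr17:41399697-41401317, lay away from the centromere and had 99 and 81 tags. On chromosome 22 the tallest DMSO peak, chr22:16372905-16376412, had 62 tags against 51, and the next, chr22:16192057-16193779, had 57 against 60. Below these few peaks, the tallest peaks were mostly those of promoters.

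The difference between the libraries depended on height. Of peaks with 30 tags or more the DMSO library had 1050 and the MAK683 library had 375, a ratio of 0.357 (0.317 to 0.402). Peaks of 18 to 29 tags were 1859 and 1542, a ratio of 0.829 (0.775 to 0.887). The 3 lower classes had ratios of 0.927 for 12 to 17 tags, 0.903 for 9 to 11 tags and 0.898 for 6 to 8 tags. On the other main chromosomes the order was the same at the top, 0.599 and 1.16, and the ratio went on upward to 1.41, 1.65 and 1.79 in the lower classes. Peaks of 6 to 8 tags were 0.898 times as many in the MAK683 library on chromosomes 17, 19 and 22 and 1.79 times as many elsewhere.

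**Figure D2:**
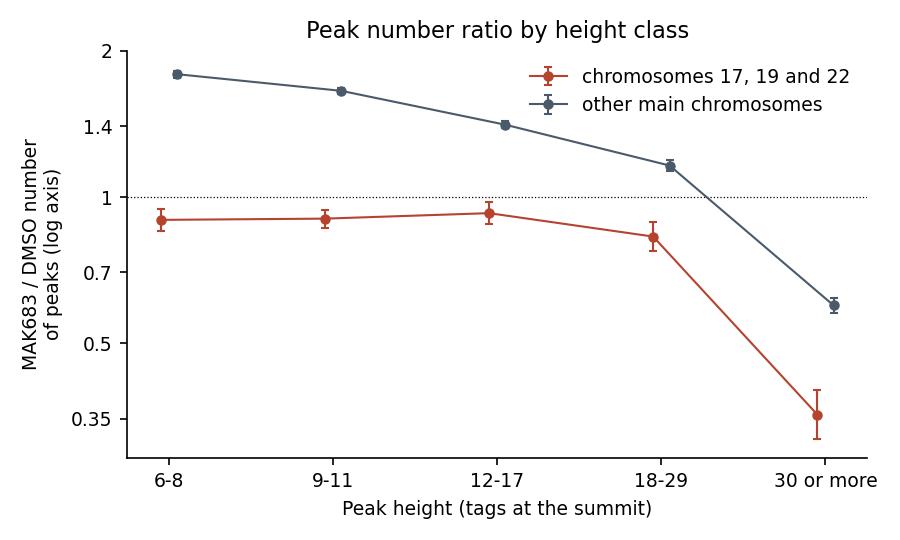
Ratio of peak numbers, MAK683 over DMSO (log axis), in 5 classes of peak height in tags, for chromosomes 17, 19 and 22 (red) and the other main chromosomes (slate blue), with 95% counting intervals. The red values stay between 0.829 and 0.927 in the lower 4 classes and the slate blue values descend from 1.79 to 1.16, and both are lowest at 30 tags or more.

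Height in tags per 1000000 tags after filtering (RPM) puts the libraries on a common depth. On chromosomes 17, 19 and 22 the DMSO library had 77 peaks of 3 RPM or more against 9 with MAK683, a ratio of 0.117 (0.0586 to 0.233), which overlapped the 0.0891 (0.0747 to 0.106) of the other chromosomes. Between 2 and 3 RPM the numbers were 615 and 113, a ratio of 0.184 (0.150 to 0.225) against 0.395 elsewhere. Between 1.5 and 2 RPM they were 939 and 384, a ratio of 0.409 (0.363 to 0.460) against 0.839 elsewhere. The classes of 1 to 1.5 RPM and of 0.5 to 1 RPM had ratios of 0.761 and 0.750. Below 0.5 RPM the ratio was 1.47, but that class takes peaks of 6 to 9 tags in the deeper MAK683 library and of 6 to 8 tags in the DMSO library, so the classes in tags above are the better guide at the low end. Peaks of 2 to 3 RPM were mostly promoter peaks: 85.0% of those in the DMSO library and 90.3% of those in the MAK683 library came within 3 kb of a TSS.

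Most MAK683 peaks on these chromosomes overlapped a DMSO peak. Of the MAK683 peaks, 73.0% (72.2 to 73.8) overlapped a DMSO peak by at least 1 bp, against 41.0% (40.8 to 41.3) on the other main chromosomes, 46.2% on chromosomes 16, 11 and 1, and at most 60.7% on any other chromosome. Of the DMSO peaks, 54.8% (53.9 to 55.6) overlapped a MAK683 peak, against 56.3% elsewhere. There were 5884 peaks of the DMSO library alone and 2991 of the MAK683 library alone, a ratio of 0.508 (0.486 to 0.531), where the other chromosomes had 44111 and 88541, a ratio of 2.01. The chromosomes were selected for having fewer MAK683 peaks. Nothing is therefore read from their higher share of overlapping MAK683 peaks or from this lower ratio. Peaks found in a single library were low, with a median of 9 tags in each library. Sharing followed height: 22.2% of DMSO peaks below 0.5 RPM, 48.6% of those from 0.5 to 1 RPM and 94.9% of those from 1 to 1.5 RPM had a MAK683 counterpart, and so did all 692 of 2 RPM or more.

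Overlapping peaks formed 6532 shared regions, and their tallest peaks were lower in the MAK683 library. The median log2 ratio of heights in RPM was -0.43 (-0.44 to -0.42), against -0.32 on the other main chromosomes, which ran from -0.39 on chromosome 12 to -0.14 on Y. Lower values were found in 5518 regions, or 84.5%, and the share over all main chromosomes was 76.2%. There were 485 regions (7.42%) that were lower by 2-fold or more in the MAK683 library, where the share over all main chromosomes was 5.54%, and 10 regions (0.153%) that were higher by 2-fold or more, where it was 0.873%. Since the chromosomes were selected on the same contrast, nothing is read from these shares. The counting interval of the log2 ratio lay below 0 in 330 of the 485 and above 0 in 6 of the 10. The nearest values on either side of the 2-fold limit were 1.03 and 0.99 upward, and -1.001 and -0.998 downward.

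The median log2 ratio was most negative at start sites. It was -0.53 (-0.55 to -0.51) in 1748 shared regions with the DMSO summit less than 500 bp from a TSS, with 91.4% of them lower. At 500 to 3000 bp it was -0.40, and in the 3 more distant classes it lay between -0.39 and -0.38. On the other main chromosomes it was -0.45 below 500 bp and between -0.30 and -0.25 further out. Start-site peaks were also taller, with a median DMSO height of 1.33 RPM against 0.60 to 0.66 RPM further out. By mean height of the region, the median log2 ratio on chromosomes 17, 19 and 22 was -0.34 below 1 RPM. It was -0.55 at 1 to 1.5 RPM, -0.54 at 1.5 to 3 RPM and -0.43 in the 15 regions above. Position was not separated from height. The numbers of peaks showed another order. Peaks less than 500 bp from a TSS were as many in both libraries, 2141 and 2174, a ratio of 1.02 (0.957 to 1.08). The ratio was 0.869 at 500 to 3000 bp, 0.773 (0.738 to 0.809) at 3000 to 10000 bp and 0.808 (0.767 to 0.851) at 10000 to 50000 bp. Beyond 50000 bp, where these chromosomes have little sequence, there were 182 DMSO and 226 MAK683 peaks, a ratio of 1.24 (1.02 to 1.51). Called peaks at start sites were thus as many in both libraries but lower with MAK683, and peaks 3000 to 50000 bp away were fewer. Peaks are not sites, since a shared region can hold several. The 6532 shared regions contained 7121 DMSO peaks but 8097 MAK683 peaks. Below 500 bp, a MAK683 counterpart was found for 84.9% of DMSO peaks, and a DMSO counterpart for 90.5% of MAK683 peaks. Equal peak numbers there thus do not mean equal numbers of sites, which were not counted by distance. On the other chromosomes the ratio went from 1.17 next to the TSS to 2.56 beyond 50000 bp. Counting any peak whose edge came within 3 kb of a TSS, 44.6% (43.7 to 45.4) of DMSO and 47.8% (46.9 to 48.7) of MAK683 peaks were near a TSS, while the other chromosomes had 32.6% and 26.7%, where the DMSO library had the larger share.

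Base composition at the summit went with the ratio too. The median G and C content of the summit windows was 58.2% for DMSO and 58.7% for MAK683 peaks, against 51.7% and 50.7% on the other chromosomes. On chromosomes 17, 19 and 22 the ratio of peak numbers was 0.510 (0.414 to 0.627) below 40% G and C, from 263 and 134 peaks. It was 0.759 from 40 to 50%, 0.839 from 50 to 60% and 0.921 (0.886 to 0.958) at 60% or more. The other chromosomes had 1.21, 1.73, 1.56 and 1.12 in these classes. Chromosomes 17, 19 and 22 were selected on this ratio, so nothing is read from their lower values in each class. Chromosome 19 had few peaks below 40%, 23 and 20, so the low ratio of that class came from chromosomes 17 and 22, at 0.483 and 0.429.

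**Figure D3:**
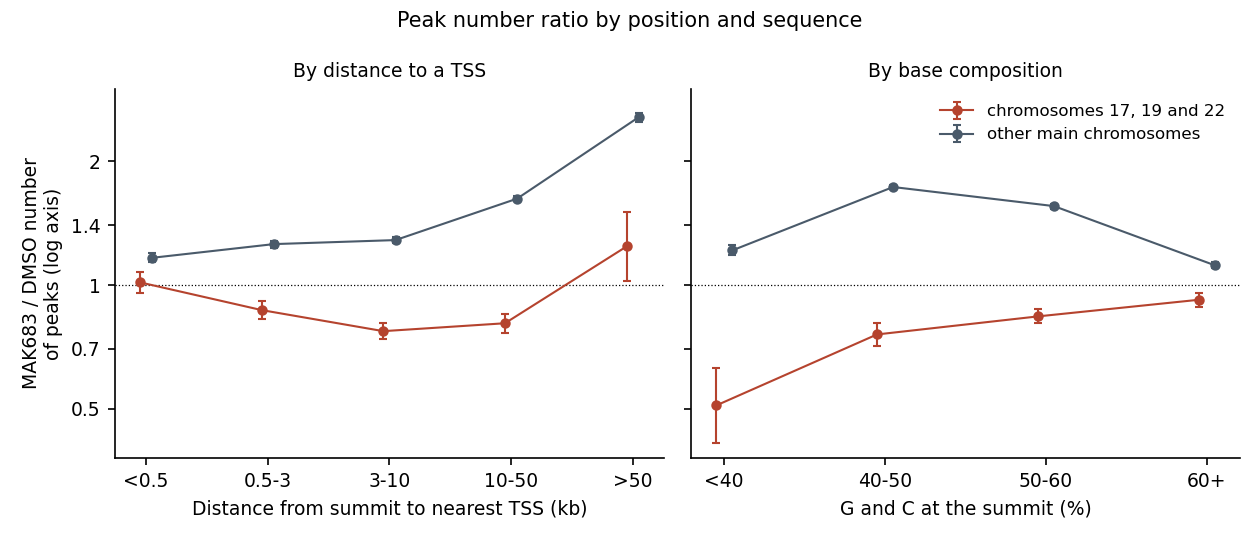
Ratio of peak numbers, MAK683 over DMSO (log axis), by distance of the summit to the nearest TSS (left) and by G and C content at the summit (right), for chromosomes 17, 19 and 22 (red) and the other main chromosomes (slate blue), with 95% counting intervals. On the left the red values start at 1.02 and reach their lowest, 0.773, at 3 to 10 kb, and on the right they go from 0.510 to 0.921.

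The difference was uneven along the chromosomes. In windows of 1 Mb, counted by summit, 163 of 194 windows had at least 10 peaks over both libraries and 24 had none. The MAK683 library had fewer peaks in 115 of the 163 windows (70.6%) and more in 44. Ordered by the number of protein-coding genes in the window, the 47 windows with the fewest genes (0 to 8) had a pooled ratio of 1.17 (1.10 to 1.25). The groups with 9 to 18, 19 to 28 and 29 to 66 genes had 0.843, 0.813 and 0.783 (0.750 to 0.817). The MAK683 library had fewer peaks in 40.4%, 75%, 81.0% and 92.1% of windows in these groups. Windows with the same numbers of genes on the other chromosomes had ratios of 1.92, 1.17, 0.958 and 0.894 (0.866 to 0.922). The MAK683 library thus had fewer peaks than the DMSO library in the gene-densest windows there as well. At each gene number the ratio was lower on chromosomes 17, 19 and 22. They were selected on this ratio, so nothing is read from that.

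Over the 163 windows, the log2 ratio of peak numbers had a Spearman correlation of -0.31 (Pearson -0.32) with the number of genes and of -0.36 (Pearson -0.33) with the G and C content of the window. Genes and G and C content were themselves correlated at 0.55 (Pearson 0.52) in these windows, which come from the same 2 libraries and share their depth, so these values describe the windows only. At the level of single summits the ratio was higher where G and C content was higher, and at the level of windows it was lower.

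In 13 windows the counting interval of the ratio lay above 1, and in 41 it lay below 1. The 13 windows held 97 protein-coding genes, 293 DMSO peaks and 781 MAK683 peaks, a ratio of 2.67. Of them, 9 were on chromosome 17, 3 on chromosome 19 and 1 on chromosome 22, and several were neighbors. Without these 13 windows, which were chosen by their ratio, the pooled ratio of the chromosomes was 0.811 in place of 0.853.

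The 3 windows of chromosome 19 were adjacent, on the long arm next to the centromere. The window chr19:29000001-30000000, whose only protein-coding start site is that of UQCRFS1, a subunit of mitochondrial complex III, had 5 DMSO and 73 MAK683 peaks. The next, chr19:30000001-31000000, with CCNE1, which encodes cyclin E1, and the zinc finger gene ZNF536, had 36 and 85 peaks. The last, chr19:31000001-32000000, held the start site of 1 protein-coding gene, TSHZ3, a teashirt zinc finger factor of smooth muscle and neuron development, and had 1 DMSO peak and 25 MAK683 peaks. Among windows with at least 20 peaks in either library, that was the highest ratio of chromosome 19, at 25 (3.39 to 185). The DMSO peak had 9 tags. The MAK683 peaks had 7 to 27 tags with a median of 11, and 12 of them had 12 tags or more. A shared region in this window, chr19:31159201-31160895 in an intron of ZNF536, had 9 DMSO and 27 MAK683 tags, a log2 ratio of 1.45 (0.36 to 2.54).

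On chromosome 17 the windows formed several groups. In chr17:32000001-33000000, with the chemokine genes CCL2, CCL7, CCL11, CCL8, CCL13 and CCL1 and with TMEM132E, there were 5 DMSO and 48 MAK683 peaks, a ratio of 9.6 (3.82 to 24.1), the highest on the chromosome by the same rule. The DMSO peaks had 7 to 12 tags. The MAK683 peaks had 6 to 25 tags with a median of 9.5, and 17 of them had 12 tags or more. They covered 21.0 kb in place of 1.96 kb, and 18 of the 48 came within 3 kb of a TSS. The window before it, with ASIC2 and TMEM98, had 5 and 29 peaks, and the one after it, with the SLFN genes, had 20 and 38. The windows that hold TMEM100, and NOG, the secreted BMP antagonist noggin, had 17 against 73 and 12 against 66 peaks. The window of SOX9, the factor of cartilage and gonad development, had no other protein-coding start site and had 9 against 23 peaks. The chromosome 22 window, chr22:17000001-18000000 with IL17RA and CECR2, had 19 and 39 peaks, a ratio of 2.05 (1.19 to 3.55).

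At the other end, the lowest ratio of chromosome 17 was found in chr17:35000001-36000000, with the kidney developmental factor LHX1 and with ACACA, which encodes an acetyl-CoA carboxylase. It had 81 DMSO and 43 MAK683 peaks, a ratio of 0.531 (0.367 to 0.768). On chromosome 19 it was found in chr19:11000001-12000000, with the SWI/SNF ATPase gene SMARCA4, with 105 and 57 peaks, a ratio of 0.543. On chromosome 22 it was found in chr22:45000001-46000000, with FBLN1, with 99 and 51 peaks, a ratio of 0.515. These 3 windows had 7, 32 and 11 genes, so a low ratio was not limited to windows with the most genes. The window of KCNJ2 and KCNJ16 on chromosome 17, with 2 genes and 37.2% G and C, had 41 and 23 peaks.

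**Figure D4:**
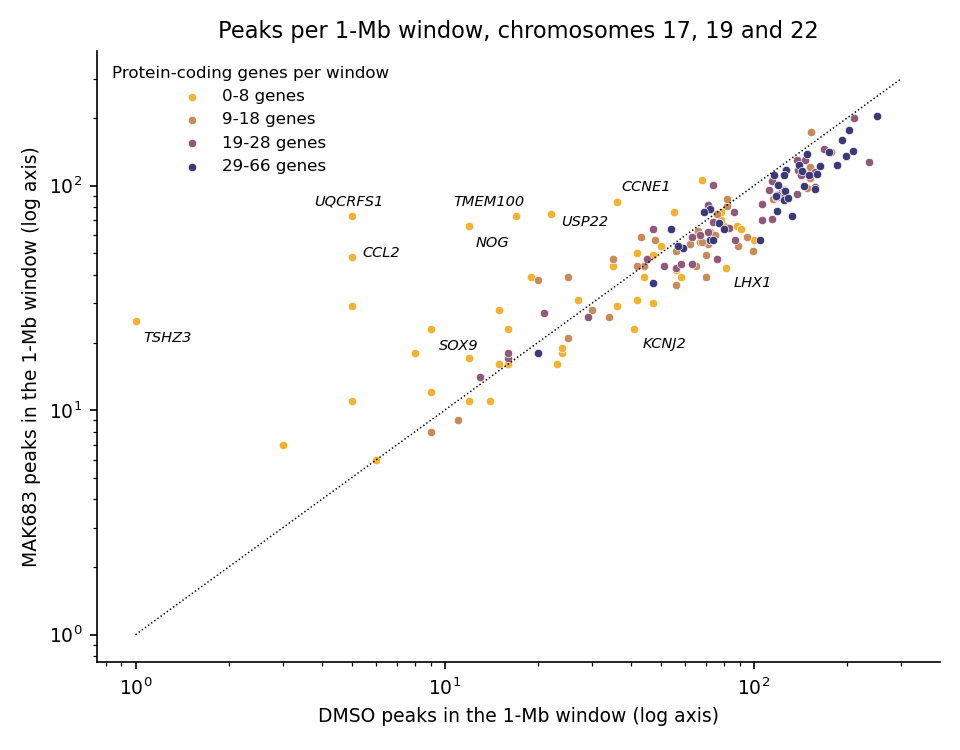
Number of MAK683 peaks against number of DMSO peaks (log axes) in the 163 windows of 1 Mb on chromosomes 17, 19 and 22 with at least 10 peaks, colored by protein-coding genes per window, with a dotted line at equality and a gene named in some windows. Windows with 29 to 66 genes sit mostly below the line, and those far above it, such as the TSHZ3 window with 1 and 25 peaks and the CCL2 window with 5 and 48, have 8 genes or fewer.

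At promoters, taken as 3 kb on either side of the TSS, 2259 of 3119 protein-coding genes on these chromosomes had a peak in both libraries and 661 had none. There were 106 genes (3.40%) with a promoter peak in DMSO only, where the share over all main chromosomes was 1.84%, and 93 genes (2.98%) with one in MAK683 only, where it was 7.87%. The other main chromosomes had 266 and 1494 such genes. By chromosome, the DMSO-only and MAK683-only genes numbered 37 and 46 on chromosome 17, 58 and 36 on chromosome 19, and 11 and 11 on chromosome 22. The shares were 3.11% (2.27 to 4.26) and 3.87% (2.91 to 5.12) on chromosome 17. They were 3.92% (3.04 to 5.03) and 2.43% (1.76 to 3.35) on chromosome 19. The order thus differed between these chromosomes, but on each the intervals overlapped. Of genes in windows with 0 to 8 genes, the share with a DMSO peak alone was 1.25% and that with a MAK683 peak alone was 6.67%. In windows with 29 to 66 genes these shares were 4.67% and 2.16%. Long noncoding RNA genes were alike, with 124 DMSO-only and 101 MAK683-only genes of 2143, against 527 and 2317 of 16559 elsewhere.

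Most of these single-library promoter peaks were low or off the start site. The 106 genes shared 95 distinct DMSO peaks with a median of 10 tags and a range of 6 to 40, and the summit was within 500 bp of the TSS for 42 of them. The 93 genes shared 88 distinct MAK683 peaks with a median of 9 tags and a range of 7 to 21, and the summit was within 500 bp for 29. In the DMSO-only group 36 genes had 12 tags or more, and in the MAK683-only group 16 had.

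The 6 tallest of the MAK683-only group had 15 to 21 tags. TMEM100, which encodes a transmembrane protein of vascular development, had a MAK683 peak of 21 tags (1.15 RPM) with the summit 2713 bp upstream of the TSS used here, inside an intron of a longer transcript. CCL2, which encodes the monocyte chemoattractant MCP-1, had one of 19 tags (1.04 RPM) with the summit 7 bp from its TSS at position 32582304. TSHZ3 had 17 tags (0.931 RPM), 449 bp into the gene, and so did ADGRE2, an adhesion receptor of myeloid cells, 1783 bp into the gene. TEKT1, a ciliary tektin, and NTN1, the axon guidance cue netrin-1, had 15 tags (0.821 RPM), 43 bp and 288 bp from the TSS. No DMSO peak was called in these 6 promoters, which means only that the pile of tags did not pass the threshold of the caller. Further down, and named after their values were seen, the group held NCAN, a brain proteoglycan, with 14 tags, the smooth muscle coactivator MYOCD with 12, the interferon lambda genes IFNL2 and IFNL3 with 12 and 7, the limb factor TBX4 with 7 and GSC2 with 10.

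Of the 6 tallest DMSO-only promoters, 4 were set by peak edges. ENSG00000267168 took its 40 tags from the peak of the neighboring promoters of MFSD11 and SRSF2, with the summit 4633 bp away. For PRAM1, with 29 tags, CHRNB1, with 26 tags from the FGF11 promoter, and POLR2E, with 21 tags, the summits lay 3681, 3959 and 3173 bp away. In each case the DMSO peak reached into the window and no MAK683 peak did. The other 2 lay on the start site: SBK2, a kinase gene, with 19 tags (1.14 RPM) 72 bp from the TSS, and DBF4B, a regulator of the replication kinase CDC7, with 18 tags (1.08 RPM) 31 bp from the TSS. Lower in this group, and named after their values were seen, were LSM7, SPPL2B, PIP5K1C and MAST3 with 16 tags each and the summit within 93 bp. LSM7 and SPPL2B shared 1 peak. Also named in this way were the vesicle sorting gene VPS25 with 14 tags and the zinc finger genes ZNF69 and ZNF283 with 13 and 12.

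Promoters with a peak in both libraries were mostly lower in the MAK683 library. The median log2 ratio was -0.53 (-0.55 to -0.51), against -0.45 elsewhere, and 2085 genes (92.3%) were lower and 174 (7.70%) higher in the MAK683 library, where the share over all main chromosomes was 13.5%. There were 190 promoters lower by 2-fold or more and 3 higher by as much. Among those with at least 20 tags in the taller library, CCL1 had 7 DMSO and 25 MAK683 tags, a log2 ratio of 1.70 (0.49 to 2.91). Smaller upward differences, in BRSK1 (14 and 26 tags), TMEM132E (12 and 21) and HS3ST3B1 (23 and 38), had intervals that held 0, and in BRSK1 and TMEM132E the summits of the libraries lay in different peaks. The CCL1 peak lies in the chemokine window described above.

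The largest downward differences were those of RDM1, AC002472.1, GNA11, SNF8 and FAM187A, with log2 ratios of -2.09 to -1.77. SNF8, a subunit of the ESCRT-II sorting complex, had 22 DMSO and 7 MAK683 tags, a log2 ratio of -1.79 (-3.02 to -0.56) in 1 shared region. GNA11, which encodes a G protein alpha subunit, had 20 and 6 tags from separate peaks, at -57 and 980 bp relative to its TSS. RDM1, a RAD52-like repair gene, had 27 and 7 tags, from a DMSO peak on its start site, chr17:34257269-34258310, that overlapped no MAK683 peak, and a separate low MAK683 peak at -1498 bp relative to the TSS. AC002472.1 took its 32 DMSO tags from the edge of the THAP7 peak, which had 30 tags in the MAK683 library but did not reach this window there. FAM187A took its 31 DMSO tags from the peak at CCDC103 and EFTUD2, which had 14 tags in the MAK683 library. These 2 values thus came from how far a neighboring peak reached.

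**Figure D5:**
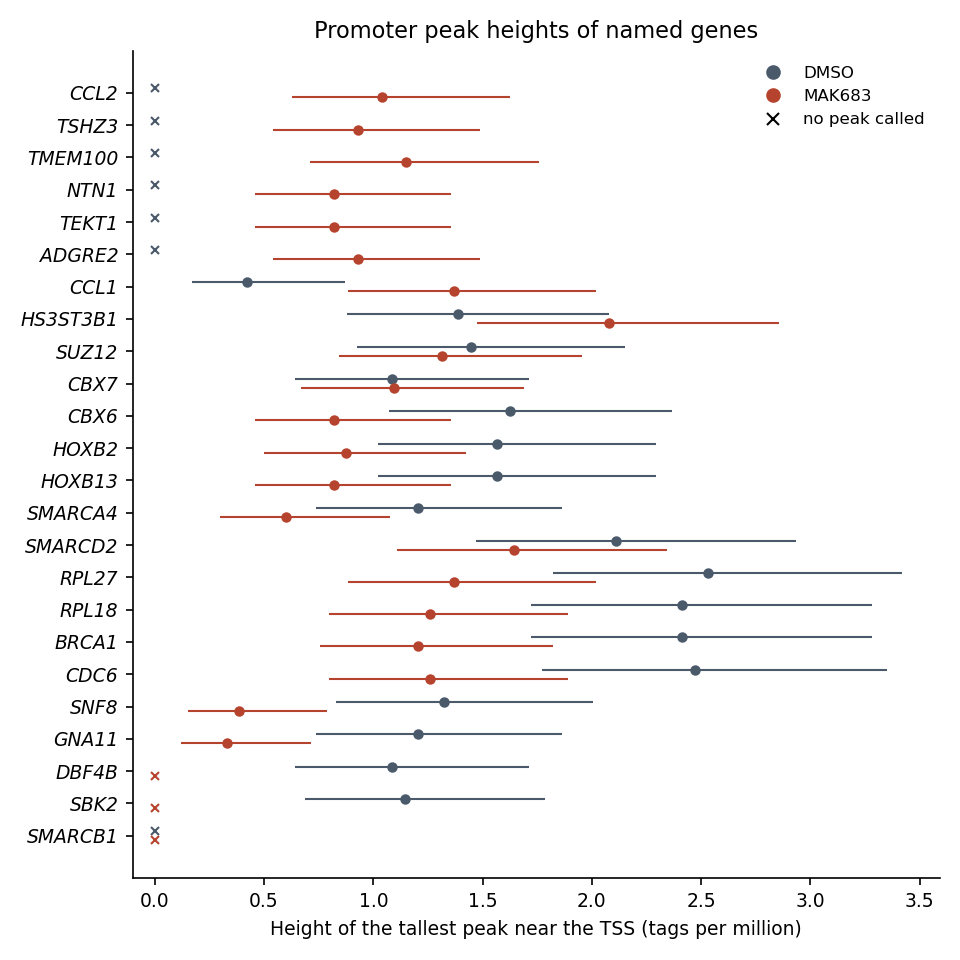
Height in RPM of the tallest peak within 3 kb of the TSS, for named genes in the DMSO (slate blue) and MAK683 (red) libraries, with 95% exact intervals for the tag count and crosses at 0 where no peak was called. CCL1 goes from 0.422 to 1.37, and most genes below it are lower in the MAK683 library.

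SMARCB1, the SWI/SNF subunit gene lost in this tumor type, had no peak in its gene body (chr22:24129118-24180196) or promoter in either library. The nearest peaks lay 159 kb before and 459 kb after the gene in the DMSO library and 189 kb and 459 kb in the MAK683 library. The stretch without peaks spanned 669 kb with DMSO and 699 kb with MAK683, and it also holds MMP11, CHCHD10, MIF, GSTT2 and CABIN1. Peak lists cannot tell a deleted stretch from a closed one. The remaining SWI/SNF genes on these chromosomes had a peak in both libraries and lower heights with MAK683, with a median log2 ratio of -0.83. Among all promoters here with both peaks, 92.3% were lower and the median was -0.53. SMARCA4, the ATPase, had 20 and 11 tags, a log2 ratio of -1.001 (-2.06 to 0.06). SMARCD2, SMARCE1, DPF1 and BICRA had log2 ratios of -0.36, -0.83, -0.83 and -0.69.

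The genes of the Polycomb list on these chromosomes had a peak in both libraries in 9 of 9 cases, 8 of them lower with MAK683 and 1 higher, with a median log2 ratio of -0.60. Of all promoters with both peaks on these chromosomes, 92.3% were lower, with a median of -0.53. SUZ12, the PRC2 core subunit whose gene is on chromosome 17, had 24 tags in each library, a log2 ratio of -0.14 (-0.95 to 0.68) after scaling. EZH1, a catalytic subunit, had 23 and 16 tags, a log2 ratio of -0.66. The PRC1 genes PCGF2, CBX2, CBX6, CBX7 and CBX8 had log2 ratios of -1.06, -0.42, -0.99, 0.01 and -0.85, and the interval lay below 0 in PCGF2 and CBX6, the PCGF2 value coming from a peak shared with PSMB3. Some of these summits lay off the start site. Relative to the TSS, the DMSO and MAK683 summits were at -4164 and -4183 bp in PCGF2 and at -3362 and -2895 bp in CBX2. In CBX8 they were at 3245 and 3656 bp. The list also counted CBX1, which encodes heterochromatin protein 1 beta and no Polycomb subunit, among the 9 and the 8 lower. Its value of -0.60 is the median given above.

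The HOXB genes, which pattern the body axis and are classical PRC2 targets, had DMSO peaks at 10 of 10 promoters, and 9 of them had a MAK683 peak as well, lower in each case, with log2 ratios from -0.93 in HOXB13 to -0.61 in HOXB6 and HOXB9 and a median of -0.83. Over all promoters with both peaks on these chromosomes 92.3% were lower, with a median of -0.53. The HOXB6 value came from separate peaks of the libraries. HOXB13 had 26 and 15 tags and was the only one whose interval lay below 0. HOXB1 had a DMSO peak of 9 tags and no MAK683 peak. HOXB4 and HOXB2 had log2 ratios of -0.88 and -0.84. HOXB3 and HOXB5 shared their peaks, at -0.83, and so did HOXB7 and HOXB8, at -0.72. Of 29 developmental transcription factor genes, 20 had peaks in both libraries, 17 of them lower, with FOXJ1 (30 and 15 tags), MAFF (34 and 17), MEOX1 and FOXA3 the furthest down at log2 ratios of -1.14, -1.14, -0.88 and -0.85. NEUROD2 and ZIM2 were higher by 0.36 and 0.10, TSHZ3, GSC2 and TBX4 had a MAK683 peak only, CRX a DMSO peak only, and 5 had none.

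Counts of members are to be read beside all protein-coding genes of these chromosomes, of which 2.98% had a promoter peak with MAK683 only (7.87% over all main chromosomes) and 92.3% of those with both peaks were lower. Of 17 CC chemokine genes, 13 had no peak, CCL1 had both, and CCL2, CCL3 and CCL25 had a MAK683 peak only, of 19, 8 and 8 tags. Of 23 genes listed as cytokines or cytokine receptors, 14 had both peaks (10 lower and 4 higher), and IFNL2, IL12RB1, IFNL3 and CXCL16 had a MAK683 peak only, with 12, 10, 7 and 7 tags. The 4 higher include IL4I1, which encodes an amino acid oxidase and neither a cytokine nor a receptor. EBI3, IL11, LIF and TNFSF9 were the furthest down at log2 ratios of -0.76, -0.72, -0.69 and -0.66, the LIF value from separate peaks of the libraries. Of 25 matrix and integrin genes, 19 had both peaks (15 lower and 4 higher, SERPINF2 the furthest up at 0.56), and NCAN, COL5A3 and ITGAE had a MAK683 peak only. SERPINF1, MFAP4 (from separate peaks) and VTN had log2 ratios of -0.89, -0.88 and -0.71, and SPACA6, a sperm membrane protein that does not belong to that group, had -1.001.

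Ribosomal protein genes and cell cycle and tumor suppressor genes had tall peaks in both libraries, and nearly all were lower with MAK683. The 20 cytosolic ribosomal protein genes were all lower, with a median log2 ratio of -0.72 and the interval below 0 in 7, where 92.3% of all promoters with both peaks on these chromosomes were lower. RPL27 had 42 and 25 tags and RPL18 had 40 and 23, and RPS28 (-1.20) and RPS15 (-0.90) were also among the furthest down, the RPS28 value from a DMSO peak at its TSS and a separate MAK683 peak 2570 bp away. Of 22 cell cycle and tumor suppressor genes, 21 were lower and CCNE1 was higher by 0.15, with a median of -0.62. BRCA1 had 40 and 22 tags, CDC6, a replication licensing factor, had 41 and 23, RAD51D had 31 and 14 and GADD45B had 30 and 17. The 6 APOBEC3 genes with both peaks, APOBEC3B, APOBEC3F, APOBEC3G and APOBEC3D among them, were lower, with a median of -0.76. Each of these medians stands beside the -0.53 of all promoters with both peaks on these chromosomes.

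The clustered gene families divided by whether they had peaks at all. Of 261 zinc finger genes of chromosome 19, mostly of the KRAB family, 177 had both peaks, 161 of them lower and 16 higher, with a median of -0.49, and 77 had none. ZFP82 was the furthest down at a log2 ratio of -1.29, and ZNF709, ZNF766 and ZNF586 had -1.14 each. ZNF69, ZNF283, ZNF358 and ZNF772 had a DMSO peak only and ZNF626, ZNF492 and ZNF559 a MAK683 peak only. Of 22 pregnancy glycoprotein and CEACAM genes, 14 had both peaks, all lower, with a median of -0.73, and PSG5, PSG1, CEACAM8 and PSG7 were the furthest down at -1.40, -1.25, -0.95 and -0.93, while CEACAM7 had a MAK683 peak only. The PSG5 value set a DMSO peak against a separate MAK683 peak. The PSG genes are near-identical copies, so their reads may be split or misplaced. In the silent families there was little to compare: 27 of 28 type I keratin genes, 31 of 34 keratin-associated protein genes, 33 of 34 olfactory receptor genes and 15 of 19 leukocyte receptor genes had no peak. KRT16 had 9 and 12 tags, LILRB3 and LILRA6 both took 15 and 13 tags from 1 DMSO and 1 separate MAK683 peak, and the members with a MAK683 peak only were KRTAP2-1, KRTAP4-16, KRTAP4-9, OR10H1, LILRB2 and LILRB5, of 8 to 10 tags. Each of these families had no member with a DMSO peak only.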

How the data were processed

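ATAC-seq peaks of 2 G401 libraries (DMSO and MAK683, 1 each) were analysed as deposited. Per the study's methods, the authors trimmed the reads with Trim-galore, aligned them to hg19 with Bowtie2 and called peaks with MACS2. The file headers name MACS 2.1.1.20160309, 1 library per call with no control, broad calling off, a q-value of 0.05, a shift of -100 bp, an extension of 200 bp and 1 background level for the whole genome, and the submitters' processing notes list MACS2 2.1.0 and 2.2.7.1. The deposited height is the pileup signal at the summit in tags, of which the caller kept 1 per position. The deposited fold enrichment is the ratio of that pileup to the background. The deposited −log10 p and −log10 q values come from the same model. The fold enrichment and q values were used only as alternatives.

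Heights were divided by tags after filtering (16598348 and 18265284, so that 1 tag is 0.0602 and 0.0547 RPM). Genes were those of GENCODE release 44 on GRCh37 (64449 genes, 20163 of them protein-coding). Python 3.11.15 was used with numpy 2.4.6, pandas 2.3.3, scipy 1.17.1 and matplotlib 3.10.9, and the steps were tested on simulated data. Intervals were Poisson intervals on the log scale for ratios, Wilson for shares, exact (Clopper-Pearson) for heights and order statistics for medians. With 1 library per group no test was run.

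The chromosomes and gene lists were chosen with earlier results of these data known. Genes were named if they had 1 of the 6 tallest promoter peaks of a single library or 1 of the 5 largest differences each way at 20 tags or more. Members of the Polycomb, SWI/SNF, HOXB and study-named lists were covered, and up to 4 members of each other list, those with the largest absolute log2 ratio. Single-library members and members higher in the MAK683 library were also named, after their values were seen. Immunoglobulin lambda segments matched 0 protein-coding genes and were not counted. A few items that the rule names are not reported here. The alternatives were stricter peak filters, each chromosome left out, other overlaps, scalings, TSS sets and windows.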

Additional observations from a re-analysis of the deposited data

How the results depend on the processing

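Of 74 alternative values, 23 stayed within the counting interval or 1.5 times the main count, 51 moved and 0 changed sign or side of 1 by themselves, while the order of the DMSO-only and MAK683-only promoter counts turned in 1 setting, given below. Requiring a −log10 q of at least 5 gave a ratio of peak numbers of 0.669 and of covered bases of 0.633. It gave 53.2% of DMSO and 85.5% of MAK683 peaks shared, 50.3% and 57.2% within 3 kb of a TSS, 85.1% of windows with fewer MAK683 peaks, and 204 DMSO-only and 44 MAK683-only promoters. At a −log10 q of at least 10 these values were 0.653, 0.580, 58.4%, 92.7%, 64.3%, 72.3%, 91.2%, 411 and 35, with a median log2 height ratio of -0.47. At 1 RPM or more they were 0.529, 0.497, 49.8%, 95.6%, 68.4%, 78.4%, 95.7%, 647 and 20, with a median of -0.47. Promoter counts under these filters take in genes whose peak in the other library was removed by the filter. Without chromosome 17, sharing was 56.3% and 75.01%, the TSS shares were 47.5% and 51.6%, and 69 and 47 promoters had a peak in DMSO only and MAK683 only. Without chromosome 19 these were 53.1%, 71.2%, 41.3%, 44.4%, 48 and 57, so MAK683-only promoters were then the more numerous. Without chromosome 22 no value moved. Requiring 50% of each peak to overlap gave sharing of 31.5% and 37.004%. Tags without depth scaling gave a median log2 ratio of -0.29, and fold enrichment gave -0.35. A TSS window of 1 kb gave 26.7% and 31.0% near a TSS, and TSSs of protein-coding genes gave 31.8% and 34.7%. Windows with at least 40 peaks had fewer MAK683 peaks in 77.3%, and dividing by each library's peak number gave 88.3%.

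No paired analysis was possible because each group had 1 library. Treatment therefore cannot be told apart from differences between these libraries, such as the 1.10 times higher tag number with MAK683 or the share of cuts that fell in peaks, whose part in the results was not tested. Low peaks decide the counts: the median peak of a single library had 9 tags, a few tags above the lowest called peaks at 6. The intervals cover counting error only.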

Other observations

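A few shared regions outside the promoters described above were higher by 2-fold or more with MAK683. They included an intergenic region of chromosome 17, chr17:53679208-53679933, with 7 and 19 tags, a log2 ratio of 1.30, in the window that also holds TMEM100. A region in an intron of TAFA5, which encodes a secreted chemokine-like protein of the brain, had 8 and 18 tags, a log2 ratio of 1.03 (-0.17 to 2.23). Another region in TAFA5 had 20 and 11 tags, a log2 ratio of -1.001 (-2.06 to 0.06), and both intervals held 0. A region at the keratin pseudogene KRT16P2 had 12 and 27 tags, a log2 ratio of 1.03. Furthest in the other direction was chr17:19012729-19013221 with 25 and 7 tags, a log2 ratio of -1.97. An intron of SELENOO, which encodes a mitochondrial selenoprotein, had 24 and 7 tags, a log2 ratio of -1.92.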
